A study of Rattus norvegicus with 13 samples.

Results

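The natriuretic peptide system was followed in rat hearts through 8 genes chosen by name: the ligand genes Nppa, Nppb and Nppc, the processing protease genes Corin and Furin, and the receptor genes Npr1, Npr2 and Npr3. All 8 were among the 25600 gene names of the 2-month table and the 38600 names of the tables of 6 and 8 months. Nppa encodes atrial natriuretic peptide (ANP), Nppb brain natriuretic peptide (BNP) and Nppc C-type natriuretic peptide (CNP). ANP and BNP are hormones that heart muscle cells make and release when the heart wall is stretched, and they promote the excretion of salt and water and relax blood vessels. Corin, a protease on the surface of heart muscle cells, cuts the ANP precursor, and furin, a protease of the secretory pathway, cuts several precursors, those of BNP and CNP among them. The receptor encoded by Npr1 binds ANP and BNP and makes cyclic GMP, that of Npr2 does so for CNP, and that of Npr3 binds all of these peptides and removes them from the circulation. In the adult heart ANP is made mainly in the atria, and both Nppa and Nppb are widely used as markers of a loaded ventricle.

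Bulk RNA of rat heart tissue was measured in 13 libraries of 5 groups, in units of expected counts per gene. Control rats had the genotype WT and the treatment none, with 2 libraries at 2 months and 3 at 6 months. Sonogenetic rats (ST) had the genotype MscL-G22S and were treated by transduction with AAV2/9-cTnT-MscL-G22S-mCherry, with 2 libraries at 2 months, 3 at 6 months and 3 at 8 months. MscL-G22S is a mutant of a bacterial channel that opens under membrane tension, mCherry is a red fluorescent protein, and the cTnT promoter is active in heart muscle cells. The labels name no control virus for the WT rats and no WT group at 8 months. They state neither whether the months are age or time since the virus nor whether ultrasound was given. Replicates are labelled biological, with no word on which animals they came from, so p-values measure the spread between these samples.

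The promoters of Nppb and Nppa are shown because these neighbouring genes moved together between libraries of the same group. Their starts lie 12176 bases apart in the rat assembly GRCr8. The sequences are those of RefSeq for the 250 bases before each start, 5′ to 3′, with matches to the searched motifs in capitals. Nppb lies on the plus strand and its window is chr5:163699758-163700007, and the window of Nppa, also on the plus strand, is chr5:163711934-163712183.
Nppb: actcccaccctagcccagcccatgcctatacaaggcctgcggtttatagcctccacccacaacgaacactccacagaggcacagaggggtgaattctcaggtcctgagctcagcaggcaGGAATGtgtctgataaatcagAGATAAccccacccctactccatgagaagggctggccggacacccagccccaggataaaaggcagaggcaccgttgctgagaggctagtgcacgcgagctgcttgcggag
Nppa: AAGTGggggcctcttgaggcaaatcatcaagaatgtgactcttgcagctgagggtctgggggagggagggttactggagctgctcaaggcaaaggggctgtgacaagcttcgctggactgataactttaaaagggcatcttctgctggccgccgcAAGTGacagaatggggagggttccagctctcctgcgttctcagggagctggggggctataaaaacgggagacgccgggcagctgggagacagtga
The motifs were searched on both strands, and no matches overlapped: AGATAA (bound by GATA factors), AAGTG (NKX2-5), CATTCC (TEAD factors), TGANTCA (AP-1) and the CArG box (SRF). Nppb held 1 AGATAA, which 10.0% of 27457 promoters of this length hold, and 1 CATTCC on the minus strand, which 11.8% hold. Nppa held 2 AAGTG, a motif found in 40.6% of promoters. The windows of Nppc, Npr1, Npr3 and Corin held 0 matches, with TGANTCA in 6.36% and CArG in 1.5% of all promoters. A match is only a match of letters, and these windows leave out more distant sequence. Other forms of these binding sites were not searched, so 0 matches does not mean that a factor has no site.

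Library totals were 6.54 to 11.3 M counts at 2 months, 6.72 to 8.49 M at 6 months and 4.7 to 5.57 M at 8 months, so that 3 counts correspond to 0.266 to 0.639 CPM (counts per M counts). The transgene MSCL_G22S had 0 counts in all 5 WT libraries, 11.1 and 11.3 CPM in ST hearts at 2 months, 94.2 to 218 CPM at 6 months and 115 to 182 CPM at 8 months. Summed markers of heart muscle of both chambers were 152900 to 163000 CPM in WT and 167100 to 174700 CPM in ST hearts at 2 months. The higher sum there went with Ttn, the largest of these genes at 2 months (mean 81614 CPM in WT, 97850 CPM in ST). Of the 11 genes tested at 2 months 0 were called, and only 3 had log2 fold changes above 0 (median -0.16). In the later tables the sums were 115400 to 122600 CPM in WT. They were 107400 to 115200 CPM in ST hearts at 6 months, below WT, and 116500 to 119100 CPM at 8 months. The lower sum at 6 months went with Myh6, the largest of these genes there (52020 to 56360 CPM in WT, 36570 to 42860 CPM in ST). Of the 12 genes 4 were called higher and 1 lower there, and 8 had log2 fold changes above 0 (median 0.09), where 40% of all genes were called. Some libraries stood apart from others of their group. WT replicate 1 at 6 months differed from replicates 2 and 3 by a chi-square per gene of 8.49 and 7.51, against 2.13 between those, and ST replicate 2 at 6 months from the others by 6.89 and 8.67, against 1.93. The replicates differed by a chi-square of 7.68 in WT and 12.1 in ST hearts at 2 months, and by 2.12 to 2.31 at 8 months. No pair was a duplicate. Levels of CPM are not corrected for gene length and are compared only for the same gene, never between the 2-month table and the later ones.

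In outline, the sonogenetic hearts had less Nppb and more Corin than WT at 2 months, and far more Nppb, more Npr1 and, with large differences between libraries, more Nppa and Npr3 at 6 months. At 8 months Nppb and Nppa were still well above the WT hearts of 6 months, and Corin and Furin were below them. Calls are from edgeR's quasi-likelihood test with an adjusted p under 0.05 over all genes tested. Nppc was too low to be tested and the other 7 genes were tested in each comparison. At 2 months 2 of 7 were called (1 higher, 1 lower), where 4.8% of 12121 genes were called, 2.7% higher and 2.1% lower. At 6 months 4 of 7 were called, all higher, where 40% of 13253 genes were called, 19.9% higher and 20.1% lower. In ST hearts of 8 against 6 months 3 of 7 were called, all lower, where 39.6% of 12931 genes were called, 19.1% higher and 20.5% lower. In ST hearts of 8 months against WT hearts of 6 months 4 of 7 were called higher and 2 lower, where 33.9% of 13095 genes were called, 17.8% higher and 16.1% lower. The ST effect at 6 months minus that at 2 months was called for 5 of 7 (4 above 0, 1 below), where 22.2% of 12659 genes were called, 10.2% above 0 and 12% below. With so many genes called in the later hearts, the counts of members at 6 months and between 8 and 6 months were near or moderately above the background. The comparison of ST with WT at 6 months shares its ST libraries with that of 8 against 6 months and its WT libraries with that of ST at 8 months against WT, so these are not independent. At 2 months the number of called genes was 271 without WT replicate 1 and 2013 without ST replicate 2. There 4 members were called without WT replicate 2. Leaving out a library of 2 months leaves 1 in its group, which is then assumed to vary like the pair of the other group, so these p-values carry little weight.

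**Figure D1:**
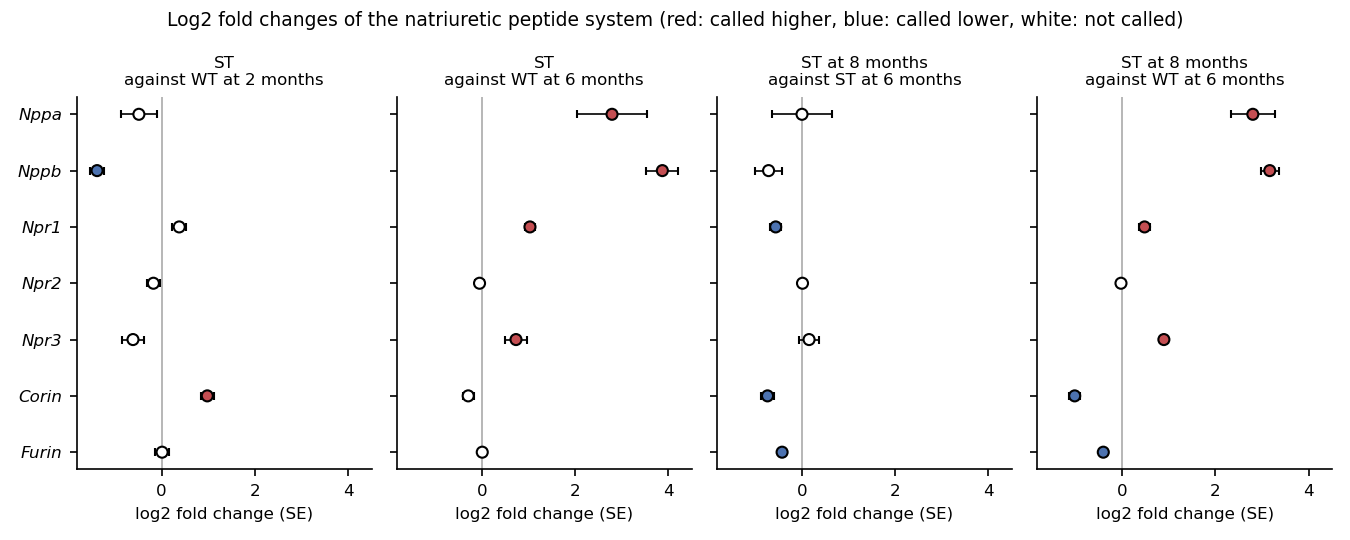
Log2 fold change (x axis) with its SE (bars) of the 7 tested genes in 4 comparisons. Red points were called higher, blue points lower and white points were not called. Nppb lies at -1.38 at 2 months and at 3.87 at 6 months.

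Nppb, the gene of BNP, was lower in sonogenetic than in WT hearts at 2 months and much higher at 6 months. At 2 months it measured 127 and 99.6 CPM in the WT libraries and 47.5 and 39.3 CPM in the ST libraries. Both ST libraries lay below both WT libraries, which holds in 1 or the other direction for 48.9% of genes in this 2-against-2 design. The log2 fold change was -1.38 (SE 0.151, adjusted p = 3.63e-05), with values from -1.55 to -1.19 without each library in turn. At 6 months the WT libraries measured 18.4, 27.1 and 32.3 CPM and the ST libraries 399, 188 and 553 CPM. Every ST library was above every WT library (51.7% of genes show no overlap here), and ST replicate 2 was the lowest of its group. The mean was 380 ± 184 CPM (SD, n = 3) in ST and 25.9 ± 7.0 CPM (SD, n = 3) in WT hearts, a log2 fold change of 3.87 (SE 0.341, adjusted p = 4.51e-06). It stayed between 3.5 and 4.2 without each library in turn.

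In the ST hearts of 8 months Nppb measured 290, 162 and 245 CPM, again lowest in replicate 2. These values overlapped with those of ST hearts at 6 months, and the log2 fold change of 8 against 6 months was -0.71 (SE 0.288, adjusted p = 0.0655), which did not pass. Without ST replicate 2 of 6 months, the library that stood apart, the log2 fold change was -1.04 (adjusted p = 1.48e-05). Without ST replicate 3 of 6 months it was only -0.34, and the adjusted p of edgeR's test without single libraries reached 0.311. With no filter on low counts it passed (-0.74). Against WT hearts of 6 months, Nppb at 8 months was 3.17 higher on the log2 scale (SE 0.188, adjusted p = 4.34e-09). All 3 ST libraries of 8 months were at least 161.7 CPM while the WT libraries were at most 32.3 CPM (46.7% of genes show no overlap here). The time point and the table cannot be told apart in comparisons of 8 with 6 months, nor can the time point and the transgene in those against WT.

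**Figure D2:**
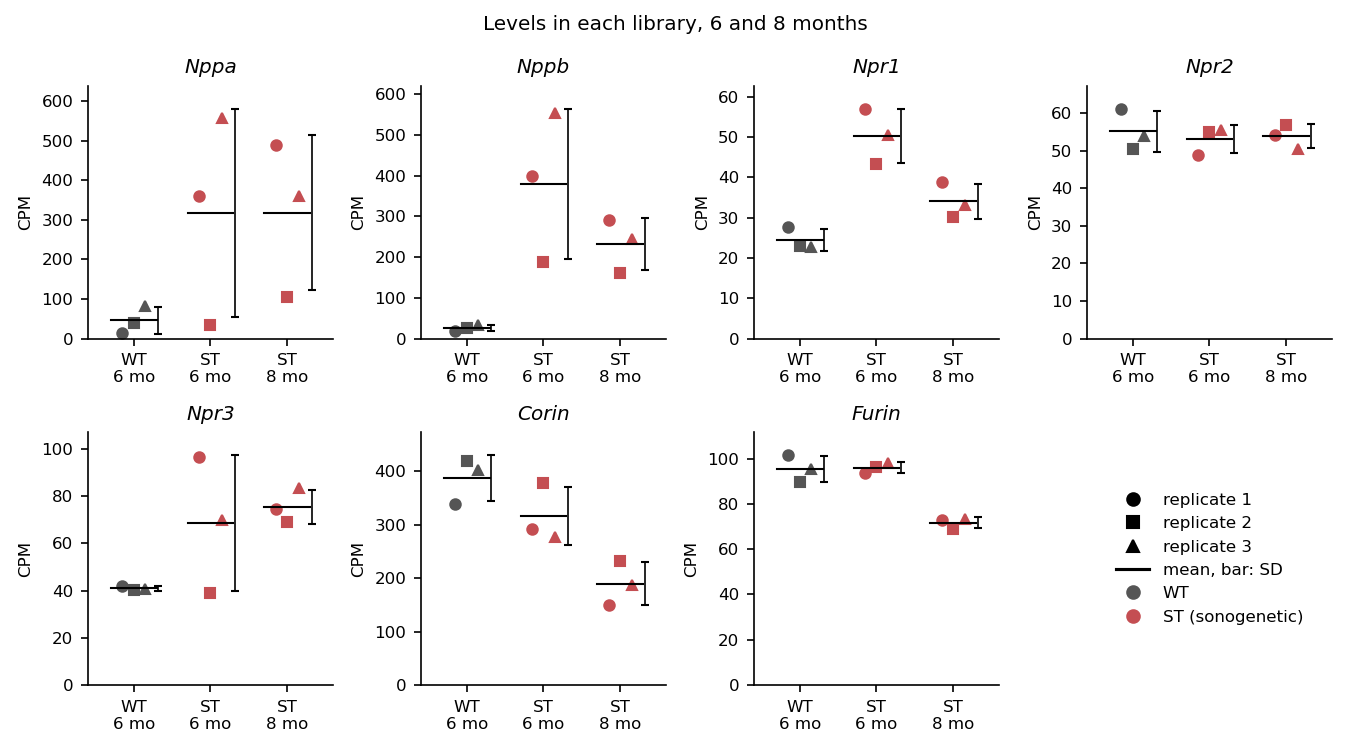
CPM (y axis) of 7 genes in each library of WT hearts at 6 months (grey) and ST hearts at 6 and 8 months (red). Lines are means, bars SD, and marker shapes are replicates 1 to 3. The Nppb values of ST hearts lie above all WT values, and ST replicate 2 at 6 months lies among the WT values for Nppa and just below them for Npr3.

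Nppa, the gene of ANP, varied more between libraries of a group than any other of these genes. At 2 months it measured 167 and 44.5 CPM in WT and 105 and 46.4 CPM in ST hearts, so that the groups overlapped. A log2 fold change of -0.49 (SE 0.393, adjusted p = 0.560) did not pass. It was 0.78 (adjusted p = 0.0401) without WT replicate 1, -1.14 (adjusted p = 7.84e-06) without WT replicate 2 and -1.22 (adjusted p = 0.0182) without ST replicate 1, each with 1 library in a group, so its direction at 2 months rested on single libraries. It also passed with no filter on low counts (-0.48, adjusted p = 0.0165).

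At 6 months Nppa measured 13.5, 40.4 and 82.6 CPM in WT hearts and 359, 34.4 and 556 CPM in ST hearts. ST replicates 1 and 3 were above every WT library, whereas ST replicate 2 lay between WT replicates 1 and 2, so the groups overlapped. The highest ST library had 16.2 times the lowest, and the highest WT library 6.11 times the lowest. The log2 fold change was 2.79 (SE 0.757, adjusted p = 0.0118). The call was lost without WT replicate 2 (2.72, adjusted p = 0.0549), without ST replicate 3 (2.10, adjusted p = 0.0577) and with limma-voom (2.39, adjusted p = 0.0668), and it was 3.33 (adjusted p = 2.14e-05) without ST replicate 2 and 2.36 (adjusted p = 0.0456) without WT replicate 1.

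The ST hearts of 8 months measured 488, 104 and 360 CPM of Nppa, with replicate 2 again the lowest. Their mean of 317 ± 196 CPM (SD, n = 3) was close to that of 6 months, 316 ± 263 CPM (SD, n = 3), and the log2 fold change of 0.00 (SE 0.653, adjusted p = 0.998) is too imprecise to exclude a large change either way. It was -0.54 (adjusted p = 0.189) without ST replicate 2 of 6 months. All 3 libraries of 8 months were above the WT libraries of 6 months, with a log2 fold change of 2.80 (SE 0.470, adjusted p = 0.000248). This call held without each library in turn, with values from 2.36 to 3.55.

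Nppc, the gene of CNP, which is known mainly from endothelium and other tissues than heart muscle, was at the limit of detection. It had 1 count in ST replicate 1 at 2 months, 3 counts in ST replicate 2 at 6 months and 0 counts in every other library. In the libraries with 0 counts, that allows up to 0.345 to 0.639 CPM, for counting error only.

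**Figure D3:**
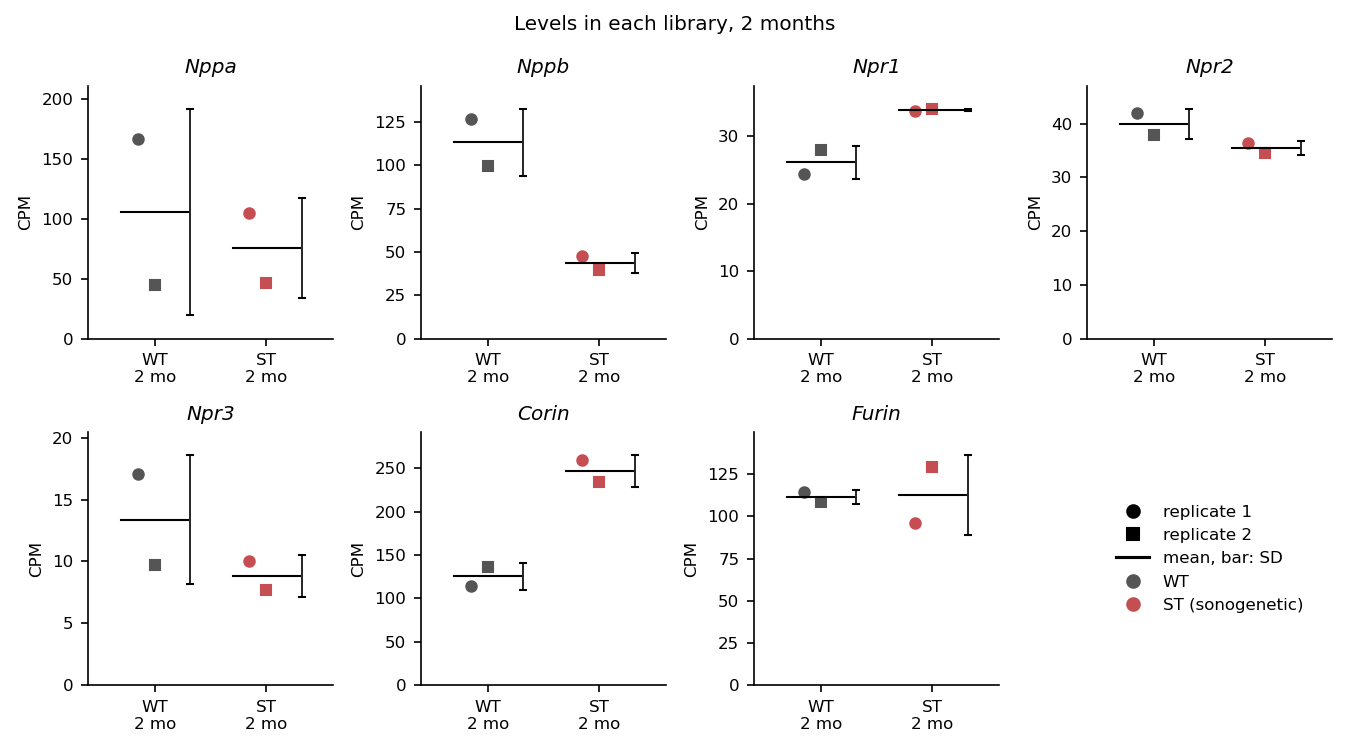
CPM (y axis) of 7 genes in each library of WT (grey) and ST (red) hearts at 2 months. Lines are means, bars SD (n = 2), and marker shapes are replicates 1 and 2. Corin is higher and Nppb lower in both ST libraries, while the Nppa values of the groups overlap.

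Since Nppa is strongest in the atria, the atrial markers of the same libraries are given beside it. Myl7, the atrial myosin light chain, measured 19.5, 17.1 and 24.6 CPM in WT and 7.09, 11.2 and 5.88 CPM in ST hearts at 6 months. It was thus lower where Nppa was higher, by a log2 fold change of -1.32 (SE 0.209, adjusted p = 0.000413), with no overlap. Sln, which encodes sarcolipin, an atrial regulator of the calcium pump, measured 1.5, 2.19 and 3.74 CPM in WT and 12.3, 7.0 and 3.01 CPM in ST hearts at 6 months (log2 fold change 1.55, SE 0.459, adjusted p = 0.0183, groups overlapping). At 8 months Sln measured 12.3, 23.7 and 26.0 CPM and Myl7 5.07, 22.8 and 26.0 CPM, lowest in the library with the most Nppa. At 2 months WT replicate 1, the highest in Nppa, was also the highest in Myl7 (18.3 CPM against 11.6, 11.7 and 5.06 CPM). Myl4, another atrial light chain, was there lower in ST hearts (8.36 and 3.13 CPM in WT, 2.49 and 1.53 CPM in ST, log2 fold change -1.53, SE 0.414, adjusted p = 0.0427), a call lost with DESeq2 and limma-voom. Bmp10, a growth factor of the atria, was at 0 or at most 0.463 CPM. Of the whole atrial list, 3 genes of 12 tested were higher and 1 lower at 2 months, and 3 of 14 were higher and 7 lower at 6 months. These are shares of 33.3% and 71.4%, against 4.8% and 40% of all genes. In ST hearts of 8 against 6 months 5 of 13 were higher and 5 lower (76.9%, against 39.6% of all genes). Against WT 2 of 14 were higher and 4 lower (42.9%, against 33.9%). With DESeq2 these calls were fewer, at 1 higher and 5 lower at 6 months, 2 and 3 for 8 against 6 months and 1 and 3 against WT. The summed level of the list was 261 to 267 CPM in WT and 336 to 339 CPM in ST hearts at 2 months, 531 to 630 CPM in WT and 448 to 550 CPM in ST hearts at 6 months, and 387 to 425 CPM at 8 months. The higher sum in ST hearts at 2 months went with Dkk3 (mean 109 CPM in WT, 154 CPM in ST) and Kcnj3 (43.7 and 68.5 CPM). These were the largest genes of the list there. The means of Myl7 (14.9 CPM in WT, 8.39 CPM in ST) and Myl4 (5.75 and 2.01 CPM) went the other way. Of the 12 genes tested at 2 months 7 had log2 fold changes above 0 (median 0.03). The part of the atrial share of each sample in the Nppa values was not tested. In bulk tissue fewer cells of a type and less RNA per cell cannot be told apart.

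**Figure D4:**
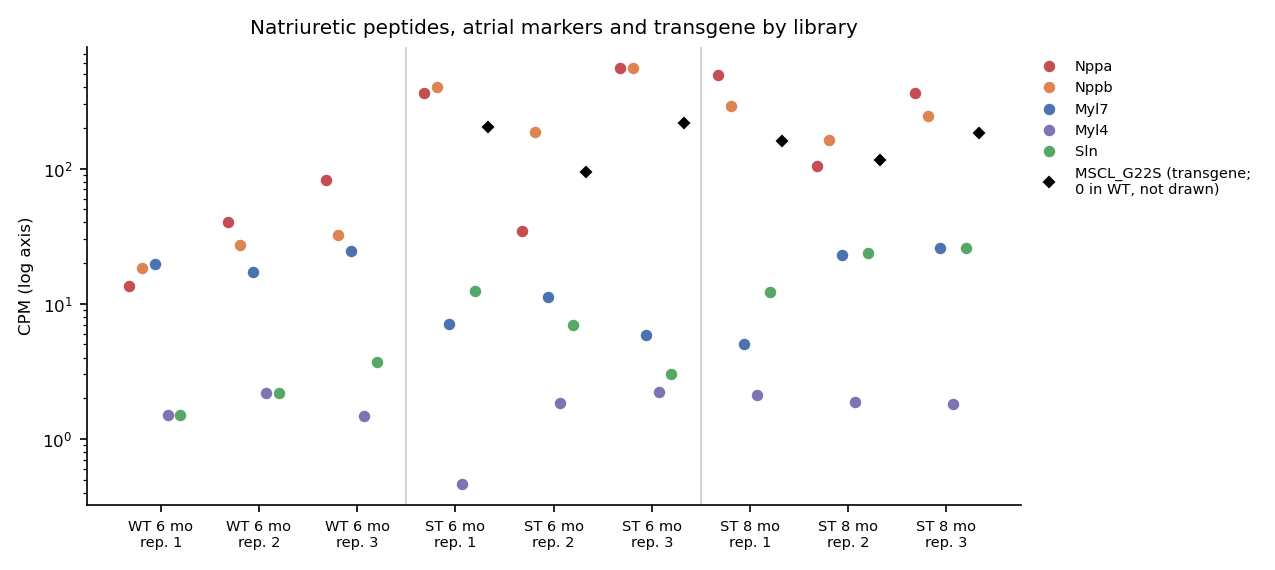
CPM on a log axis (y) of Nppa, Nppb, the atrial markers Myl7, Myl4 and Sln and the transgene in each of the 9 libraries of 6 and 8 months (x). Each point is 1 library. In both ST groups replicate 2 is the lowest for Nppa, Nppb and the transgene, an order that Myl7 and Sln do not show.

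Corin, the gene of the protease that cuts the ANP precursor, was higher in ST than in WT hearts at 2 months, where Nppb was lower, and fell from 6 to 8 months. At 2 months it measured 114 and 136 CPM in WT and 259 and 234 CPM in ST hearts, with both ST libraries above both WT libraries. The log2 fold change was 0.98 (SE 0.136, adjusted p = 0.000309) and stayed between 0.86 and 1.1 without each library in turn. At 6 months the WT libraries measured 338, 419 and 403 CPM and the ST libraries 292, 378 and 278 CPM. ST replicate 2 lay above WT replicate 1, so the groups overlapped, and the log2 fold change of -0.29 (SE 0.116, adjusted p = 0.0672) did not pass. Without ST replicate 2 it was -0.44 (adjusted p = 0.00187) and without WT replicate 1 -0.38 (adjusted p = 0.0240). Without ST replicate 3 it was -0.20, and the adjusted p of edgeR's test without single libraries reached 0.244. The log2 fold change over all libraries passed by library size only (-0.40, adjusted p = 0.0128), with no filter (-0.28, adjusted p = 0.0179) and with DESeq2 (-0.28, adjusted p = 0.0412).

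At 8 months Corin measured 151, 231 and 187 CPM, below every library of ST and WT hearts at 6 months. No overlap was seen for 51% of genes between ST hearts of 8 and 6 months. Corin differed by -0.74 on the log2 scale (SE 0.140, adjusted p = 0.00116) against ST and -1.01 (SE 0.118, adjusted p = 7.9e-06) against WT hearts of 6 months. Both calls held without each library in turn. RefSeq places the models LOC134481744 and LOC102550273 over Corin, and the labels do not say whether counting used strand, so reads of these models and of Corin may not be told apart. The same holds for LOC120101091 at Npr1 and LOC102553801 at Furin.

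Furin, the gene of the general precursor protease, differed little between ST and WT hearts at 2 and at 6 months and was lower at 8 months. At 2 months the WT libraries measured 114 and 109 CPM and the ST libraries 96.1 and 129 CPM, on both sides of WT (log2 fold change 0.01, SE 0.146, adjusted p = 0.978). At 6 months it measured 101, 89.9 and 95.5 CPM in WT and 93.7, 96.3 and 98.2 CPM in ST hearts (0.01, SE 0.0686, adjusted p = 0.909). The groups overlapped at both times, and the sign of so small a value changed with the setting. At 8 months Furin measured 72.7, 69.0 and 73.5 CPM, below all 6 libraries of 6 months. It differed by -0.42 (SE 0.0665, adjusted p = 0.000281) against ST and -0.40 (SE 0.0721, adjusted p = 0.000449) against WT hearts on the log2 scale. These 2 comparisons share the 8-month libraries.

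Other genes that process or degrade these peptides moved in both directions. In a list of 11 genes 9 were tested in each comparison, and at 2 months 0 of them passed with edgeR, DESeq2 or limma-voom, with 2, 1 and 2 at an unadjusted p under 0.05. All 9 had log2 fold changes above 0 there (median 0.21, against 0.00 for all genes). At 6 months 4 rose and 1 fell (median 0.26, against 0.00), a called share of 55.6%, against 40% of all genes. Pcsk6 (PACE4), which activates corin, rose by a log2 fold change of 0.69 (SE 0.066, adjusted p = 8.41e-06). Pam, which amidates peptides and is known as a membrane protein of atrial secretory granules, rose by 0.66 (SE 0.076, adjusted p = 3.93e-05). Ece1, the endothelin-converting enzyme, rose by 0.61 (SE 0.0947, adjusted p = 0.000347) and Galnt1, a glycosyltransferase that acts on protein serines and threonines, by 0.26 (SE 0.0699, adjusted p = 0.0103). Pcsk7, a relative of furin, fell by 0.60 (SE 0.0803, adjusted p = 0.000123). From 6 to 8 months in ST hearts 1 gene rose and 5 fell (median -0.20, against 0.02), a called share of 66.7%, against 39.6% of all genes. Ece1 fell by 0.81, Pam by 0.57 and Pcsk6 by 0.56, while Dpp4, a peptidase that can trim BNP, rose by 1.37 (SE 0.148, adjusted p = 1.28e-05). Against WT hearts of 6 months Dpp4 was higher at 8 months by 1.31 (adjusted p = 9.21e-07) and Pcsk7 lower by -0.82 (adjusted p = 2.47e-06), and the other 7 did not pass (median 0.08, against -0.01). The called share was 22.2% there, against 33.9% of all genes. Of the 2 genes not tested, Ostn, which encodes osteocrin, a ligand of the clearance receptor, was at 0 in all but 2 libraries (ST replicate 2 at 2 months, 0.118 CPM, and ST replicate 1 at 8 months, 0.211 CPM).

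Npr1, the gene of the receptor for ANP and BNP, was higher in ST than in WT hearts at 6 months and lower again at 8 months. At 2 months it measured 24.4 and 27.9 CPM in WT and 33.8 and 34.0 CPM in ST hearts. The ST libraries were above the WT libraries, but the log2 fold change of 0.38 (SE 0.148, adjusted p = 0.176) did not pass. At 6 months the WT libraries measured 27.7, 23.1 and 22.8 CPM and the ST libraries 56.9, 43.4 and 50.5 CPM, without overlap. Npr1 was 1.03 higher on the log2 scale (SE 0.116, adjusted p = 3.14e-05) and stayed between 0.94 and 1.13 without each library in turn. At 8 months it measured 38.9, 30.3 and 33.0 CPM, between the groups of 6 months and overlapping with neither. This was a fall by 0.56 on the log2 scale against ST hearts of 6 months (SE 0.115, adjusted p = 0.00196) and 0.48 above WT hearts (SE 0.114, adjusted p = 0.00381). Both calls held without each library in turn. In order, the mean levels of the later groups were thus WT at 6 months (24.5 ± 2.76 CPM, SD, n = 3), ST at 8 months (34.1 ± 4.41 CPM, SD, n = 3) and ST at 6 months (50.2 ± 6.76 CPM, SD, n = 3), each step past the test.

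Npr3, the gene of the clearance receptor, was higher in ST hearts of 8 months than in WT hearts of 6 months, and less surely higher at 6 months. At 2 months it measured 17.1 and 9.71 CPM in WT and 10.0 and 7.65 CPM in ST hearts, overlapping (log2 fold change -0.61, SE 0.245, adjusted p = 0.186). It passed with no filter (-0.61, adjusted p = 0.0446). With 1 WT library left, the log2 fold change was -0.95 without WT replicate 2 and only -0.12 without WT replicate 1. At 6 months the WT libraries lay close together at 42.0, 40.2 and 40.7 CPM, and the ST libraries measured 96.5, 39.2 and 70.1 CPM. ST replicates 1 and 3 were above all WT libraries and ST replicate 2 below them. The log2 fold change was 0.73 (SE 0.234, adjusted p = 0.0257), and 1.02 (adjusted p = 1.37e-05) without ST replicate 2. Leaving out any other library ended the call (0.42 to 0.75, adjusted p = 0.0617 to 0.118), as did scaling by library size only (0.62, adjusted p = 0.0504), DESeq2 (0.75, adjusted p = 0.109) and limma-voom (0.63, adjusted p = 0.0613).

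At 8 months Npr3 measured 74.6, 69.0 and 83.3 CPM, within the range of ST hearts at 6 months (log2 fold change 0.15, SE 0.221, adjusted p = 0.613). Without ST replicate 2 of 6 months the value was -0.13 (adjusted p = 0.353). Against WT hearts it was 0.90 higher (SE 0.0846, adjusted p = 7.83e-07) with no overlap, a call that held without each library in turn (0.82 to 0.96). Npr3 is known from the endocardium, the inner lining of the heart. The summed endocardial markers were 243 to 283 CPM in WT and 204 to 287 CPM in ST hearts at 6 months and 220 to 271 CPM at 8 months. The largest of these markers was Vwf, at 177 to 216 CPM in WT and 139 to 201 CPM in ST hearts at 6 months. Of these 7 markers 2 were called higher and 0 lower at 6 months, and at 8 months against WT 1 was higher and 3 lower. At 6 months only 2 had log2 fold changes above 0 (median -0.29), and limma-voom called 2 higher and 1 lower. Of all genes 40% were called at 6 months and 33.9% at 8 months against WT. The endothelial markers, relevant to Npr1 as well, summed to 1424 to 1660 CPM in WT, 1523 to 1864 CPM in ST at 6 months and 1919 to 2182 CPM at 8 months. Of 10 such genes 4 were higher and 2 lower at 6 months, and 7 were higher and 0 lower at 8 months against WT. Smooth muscle and pericyte markers, from cells that also carry Npr1, summed to 265 to 343 CPM in WT and 338 to 486 CPM in ST hearts at 6 months, with 5 of 8 called higher. The part of these cells in the receptor levels was not tested.

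Npr2, the gene of the CNP receptor, passed in none of the comparisons. It measured 41.9 and 37.9 CPM in WT and 36.3 and 34.5 CPM in ST hearts at 2 months (log2 fold change -0.17, SE 0.140, adjusted p = 0.554). At 6 months it measured 61.2, 50.4 and 54.0 CPM in WT and 48.9, 55.03 and 55.6 CPM in ST hearts (-0.05, SE 0.0901, adjusted p = 0.709). At 8 months the values were 54.3, 56.8 and 50.5 CPM, with differences of 0.01 (SE 0.0842, adjusted p = 0.913) from ST and -0.02 (SE 0.0883, adjusted p = 0.870) from WT hearts of 6 months. The 3 later groups overlapped fully.

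Genes that make, carry or end the cyclic GMP signal of these receptors moved in both directions. Of 20 tested at 2 months 1 rose and 0 fell (median 0.01, against 0.00 for all genes, and 5% called, against 4.8%). It was Rgs2, a brake on G protein signals that cyclic GMP-dependent kinase activates, with 0.87 (SE 0.236, adjusted p = 0.0438), and with DESeq2 and limma-voom 0 of the 20 passed, with 3 and 4 at an unadjusted p under 0.05. At 6 months 4 of 20 rose and 4 fell (median -0.04, against 0.00), a called share of 40%, the same as among all genes. Nos3, the endothelial nitric oxide synthase, rose by 0.95 (SE 0.1, adjusted p = 1.9e-05), from 58.2 to 76.6 CPM in WT to 118 to 140 CPM in ST hearts. Vasp, a substrate of the kinase, rose by 0.74 (SE 0.0909, adjusted p = 6.7e-05) and Rgs2 by 1.66 (SE 0.219, adjusted p = 0.000112). Gucy1a1, a subunit of the soluble guanylate cyclase that answers to nitric oxide, fell by 0.96 (SE 0.156, adjusted p = 0.000512) and Prkg1, the cyclic GMP-dependent kinase of heart and smooth muscle, fell by 0.93 (SE 0.16, adjusted p = 0.000726). In ST hearts of 8 against 6 months 6 of 19 rose and 4 fell (median 0.12, against 0.02, and 52.6% called, against 39.6%). Rgs2 fell by 1.77 and Nos3 by 0.46, and Gucy1a1 rose by 0.80 and Pde2a, a phosphodiesterase stimulated by cyclic GMP, by 0.49. Against WT hearts 6 of 20 were higher and 4 lower at 8 months (median 0.09, against -0.01, and 50% called, against 33.9%). Nos3 was higher by 0.50 (adjusted p = 0.000415) and Prkg1 lower by -0.60 (adjusted p = 0.00334), and Pde3a, a phosphodiesterase inhibited by cyclic GMP, was lower by -0.46 (adjusted p = 4.35e-05).

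Genes known to regulate the peptide promoters, or to be raised with them by load, were followed in a list of 28, of which 27 were tested. At 2 months 3 rose and 2 fell (median -0.02, against 0.00 for all genes), a called share of 18.5%, against 4.8% of all genes. Ankrd1, a stretch-responsive partner of titin, fell by 0.95 (SE 0.151, adjusted p = 0.00107) and Myocd, a coactivator of SRF, fell by 0.95 (SE 0.126, adjusted p = 0.000204). Tbx20, Klf15 and Fhl1 rose by 0.77, 0.65 and 0.62. At 6 months 12 rose and 8 fell (median 0.21, against 0.00), a called share of 74.1%, against 40% of all genes. The list was chosen with earlier results of these data known, so its share is a description only. Egr1, an immediate early zinc finger factor, rose from 6.14 to 8.41 CPM in WT to 166 to 210 CPM in ST hearts, by 4.67 on the log2 scale (SE 0.132, adjusted p = 3.09e-10). Atf3, a stress-induced factor, rose by 4.82 (SE 0.172, adjusted p = 2.2e-09). Its 3 ST libraries measured 72.9, 99.3 and 79.0 CPM, so that replicate 2 was the highest in Egr1 and Atf3 and the lowest in Nppa and Nppb. Ccn1, a secreted matrix protein and YAP target, rose by 2.75, Klf4 by 1.82 and Ankrd1 by 1.34. Of the factors whose motifs were searched, Gata4 rose by 0.60, Srf by 0.77, Tead1 by 0.46 and Jun, a subunit of AP-1, by 0.96, whereas Gata6 fell by 0.44 (SE 0.088, adjusted p = 0.00216) and Nkx2-5 did not pass (0.12, adjusted p = 0.262). Klf15, a repressor of hypertrophic genes, fell by 0.78 (SE 0.0697, adjusted p = 5.12e-06).

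From 6 to 8 months in ST hearts 4 regulators rose and 17 fell (median -0.44, against 0.02 for all genes). The called share was 77.8%, against 39.6% of all genes. Atf3 fell by 3.35, Egr1 by 2.49, Ccn1 by 1.70, Tbx20 by 1.23 and Klf4 by 1.21. Over the same step Nppb changed by -0.71 and Nppa by 0.00, neither past the test. Ankrd1 fell by 0.44 (SE 0.0824, adjusted p = 0.0011). Against WT hearts of 6 months 7 regulators were higher and 8 lower at 8 months (median -0.09, against -0.01). The called share was 55.6% there, against 33.9% of all genes. Egr1 was still higher by 2.19 (SE 0.149, adjusted p = 1.86e-08), Ccn1 by 1.06 and Ankrd1 by 0.91 (SE 0.0595, adjusted p = 1.21e-08). Tbx20, in contrast, did not pass there. Whether the members and these regulators are linked was not tested.

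**Figure D5:**
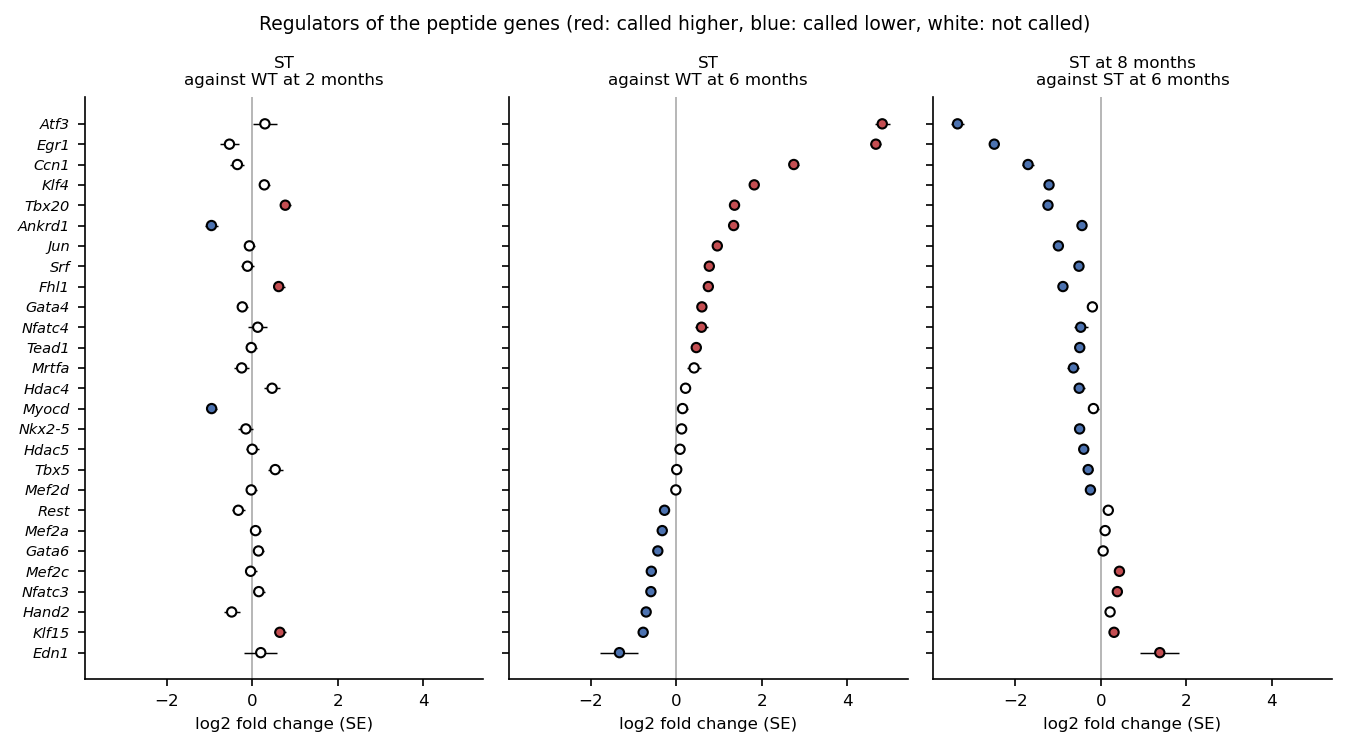
Log2 fold change (x axis) with its SE (bars) of 27 regulators of the peptide genes, ordered by their value at 6 months, in ST against WT hearts at 2 and 6 months and in ST hearts of 8 against 6 months. Red points were called higher, blue points lower and white points were not called. Atf3 and Egr1 lead at 6 months (4.82 and 4.67) and have the lowest values from 6 to 8 months.

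Nppa and Nppb went together from library to library within the later groups. The Pearson correlation of their deviations from the group means of log2 CPM was 0.989 over 9 libraries of 3 groups, a description that rests on few libraries and carries no test. Of 11835 genes compared, Fbxo44 (0.993), Nppb (0.989), Ctsl (0.978), Osbpl10 (0.971) and Psmd9 (0.970) were most like Nppa. Nppa (0.989), Psmd9 (0.984), Fbxo44 (0.977), Ctsl (0.969) and Auh (0.965) were most like Nppb. The spread of these genes was much smaller than that of Nppa: Fbxo44, which encodes an F-box protein of ubiquitin ligases, measured 20.4, 13.3 and 21.3 CPM in ST hearts at 6 months. For 14 other atrial markers the same correlation with Nppa ranged from -0.49 (Kcnj5) to 0.53 (Kcnj3), and it was -0.44 for Myl7, -0.15 for Myl4 and -0.05 for Sln.

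Nppb and Nppa lie side by side on rat chromosome 5, so some of their neighbours in the order of GRCr8, chosen after their values were seen, are given for comparison. At 2 months Clcn6 (-0.07, adjusted p = 0.876), Agtrap (-0.10, adjusted p = 0.868) and Plod1 (0.22, adjusted p = 0.428) did not pass. At 6 months Clcn6, a chloride transporter gene next to Nppa, fell by 0.50 (SE 0.104, adjusted p = 0.00273) and Agtrap, which encodes an angiotensin receptor-associated protein, fell by 0.60 (SE 0.129, adjusted p = 0.00331). On the other side of Nppb, Plod1, a lysyl hydroxylase of collagen, rose by 0.37 (SE 0.0931, adjusted p = 0.00742). Fbxo44, 8 genes from Nppa, did not pass (-0.06, adjusted p = 0.788). C5h1orf167, a low gene 3 places from Nppa, fell by 1.69 (SE 0.431, adjusted p = 0.00845), from 1.33 to 1.8 CPM in WT to 0.262 to 0.737 CPM in ST hearts. In all, 2 of the 9 tested neighbours were higher and 3 lower at 6 months (1 and 3 with DESeq2), where 40% of all genes were called. In ST hearts of 8 against 6 months 3 of 8 were higher and 1 lower (1 and 0 with DESeq2), where 39.6% of all genes were called. Against WT 1 of 9 was higher and 0 lower at 8 months, where 33.9% were called.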

How the data were processed

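Bulk RNA of 13 rat heart libraries was analysed from 3 deposited tables, 1 per time point, all of whose 13 sample columns were used. The values are expected counts as the authors deposited them: not negative, mostly whole and not scaled between libraries. The aligner and the counting tool were not given in the sources used here, and the submitters' processing notes list the builds GRCm38 and mm10, which are mouse builds, while 38599 of the 38600 names of the later tables are rat RefSeq symbols of GRCr8. Positions printed here come from RefSeq with GRCr8, not from the tables. The later tables share 23019 names with the 2-month table.

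Expected counts were rounded. Every comparison was fitted on its own libraries, over gene names that each of its tables lists, by edgeR 4.0.16 in R 4.3.3 (genes kept by filterByExpr, TMM factors, quasi-likelihood F test, which is two-sided). P-values were adjusted by Benjamini-Hochberg over all genes tested, and called under 0.05. The SE of a log2 fold change was taken from the F statistic, as its size over the root of F. For CPM, TMM factors came from the 4 libraries of 2 months on their own and from the 9 later libraries jointly. Likeness used log2 CPM with a prior count of 2, for named genes with a mean of at least 1. Totals of 4.7 to 11.3 M counts set the precision of low genes, and limits from 3 counts cover counting error only. The procedure was tested on simulated counts whose spread followed the trend over all genes. That test does not cover genes that vary within groups as much as Nppa.

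The 8 members and all gene lists were chosen with earlier results of these data known. Named are the members, up to 5 genes with the smallest p of each pathway list and comparison, list genes that passed in any comparison, and the 5 genes most like Nppa and Nppb. Marker lists are given by counts, summed levels and defining members. The names chosen for the text are a selection, made after their values were seen. Promoter sequences were found in RefSeq for 6 of the 8 genes by symbol. Alternatives were other size factors, library size only, no filter, a filter of 5 CPM, DESeq2 1.42.0, limma-voom (limma 3.58.1), a block for the replicate number, 1 fit over the later groups, 1 library fewer at a time, and no haemoglobin or mitochondrially encoded genes.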

Additional observations from a re-analysis of the deposited data

Results flagged for a closer look

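The ST effect at 6 months differed from that at 2 months for 5 of the 7 tested genes, by the interaction of group and time point in edgeR's quasi-likelihood test. For Nppb the difference was 5.24 on the log2 scale (SE 0.458, adjusted p = 1.06e-06): both ST libraries of 2 months were below WT and all 3 of 6 months above. For Corin it was -1.28 (SE 0.187, adjusted p = 0.000174), with ST above WT at 2 months and a lower mean at 6 months. These 2 differences held without each library in turn (4.87 to 5.57 for Nppb and -1.43 to -1.16 for Corin).

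For Npr1 the difference was 0.64 (SE 0.182, adjusted p = 0.0191). It was lost without WT replicate 2 of 2 months (0.55, adjusted p = 0.0853) and without ST replicate 1 of 2 months (0.64, adjusted p = 0.0504). For Nppa the difference was 3.27 (SE 1.11, adjusted p = 0.0437) and for Npr3 1.34 (SE 0.436, adjusted p = 0.0360). Both were lost with DESeq2 and limma-voom. Without single libraries Nppa ranged from 2.00 (WT replicate 1 of 2 months, adjusted p = 0.332) to 4.02, and Npr3 from 0.84 (the same library, adjusted p = 0.346) to 1.66. Nppa lost its call without either ST library of 2 months, and at 6 months without WT replicate 1 or 2 or ST replicate 1 or 3. Npr3 lost it without all of these and also without WT replicate 3 of 6 months. Time point and table are the same here, and the test assumes that differences between the tables act alike on both groups of a table.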

How the results depend on the processing

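At 2 months the number of members called was 4 with no filter, against 2, and 2 to 4 without single libraries. The number of genes called there was 1019 with no filter and 355 with DESeq2, against 582, and 271 to 2013 without single libraries. At 6 months 2 members were called with limma-voom, against 4, and 2 to 5 without single libraries (2 without WT replicate 2 or ST replicate 3). For the difference of effects 3 members were called with DESeq2 and 3 with limma-voom, against 5, and 2 to 5 without single libraries, with 1558 genes called without WT replicate 1 of 2 months and up to 3194 without ST replicate 2 of 2 months, against 2813. The other 131 values of these counts were within 1.5 times the main ones. Of the values of single members 449 kept direction and side of the threshold, 32 lost and 14 gained a call, and 30 changed sign, those of Furin and Npr2 and, where the main value did not pass, those of Nppa and Npr3.

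The sign changes were as follows. Furin at 2 months was -0.0051 with limma-voom and -0.21 to 0.21 without single libraries, and at 6 months -0.10 by library size only, -0.0034 with the filter of 5 CPM and -0.0274 to 0.0503 without single libraries. Its difference of effects was 0.0086 with limma-voom and -0.21 to 0.21 without single libraries. Nppa at 2 months ranged from -1.22 to 0.78. In ST hearts of 8 against 6 months Nppa was -0.0047 with DESeq2's size factors, -0.0243 with no filter, -0.0044 with DESeq2, -0.0021 without mitochondrially encoded and haemoglobin genes, and -0.54 to 0.69 without single libraries. There Npr2 was -0.0094 with no filter and -0.0515 to 0.0558 without single libraries, and Npr3 -0.13 to 0.46. Npr2 at 6 months ranged from -0.11 to 0.0274, and at 8 months against WT from -0.0834 to 0.0465. The cause was not tested.

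Scaling by library size only moved the median log2 fold change of all genes at 6 months to -0.12 from 0.00 and the split of calls to 1731 higher and 3714 lower, from 2643 and 2662. The split became 3072 and 2140, from 2464 and 2651, for 8 against 6 months, 1880 and 2856, from 2329 and 2112, for 8 months against WT, and 1004 and 1896, from 1296 and 1517, for the difference of effects. Nppc was the only member too low to be tested, and the part of depth in this was not tested.

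The replicate number was also used as a block. Same-numbered libraries shared little: the correlations of their deviations from the group means were 0.071 at 2 months, 0.03, 0.111 and 0.004 at 6 months and 0.055, 0.178 and 0.038 between ST hearts of 6 and 8 months, so the numbers were not taken as pairs. With the replicate block 636 genes were called at 2 months and 5435 at 6 months, and 2, 5, 4, 6 and 5 members in the 5 comparisons. Corin at 6 months (-0.30, adjusted p = 0.0145) and Nppb in 8 against 6 months (-0.63, adjusted p = 0.000544) gained a call. Furin with the block was -0.0029 at 2 months and 0.0053 for the difference of effects.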

Other observations

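The order of the libraries within the ST groups is given as values only. At 6 months ST replicates 1, 2 and 3 had 204, 94.2 and 218 CPM of MSCL_G22S, and Nppb was 399, 188 and 553 CPM. At 8 months the transgene was at 159, 115 and 182 CPM and Nppb at 290, 162 and 245 CPM. Replicate 2 was thus lowest in the transgene, Nppa, Nppb, Npr1 and Npr3 and highest in Corin in both groups, while the order of the other replicates was not the same for all. Summed endothelial markers were also lowest there (1784, 1523 and 1864 CPM at 6 months, 2182, 1919 and 1942 CPM at 8 months). So were smooth muscle and pericyte markers (474, 338 and 486 CPM, then 597, 333 and 338 CPM). Sums of atrial, endocardial and both-chamber heart muscle markers were highest in replicate 2 in both groups. With 3 libraries in each group no relation was tested. At 2 months the transgene was at 11.3 and 11.1 CPM in ST hearts, where Nppb was below WT. These levels come from the 2-month table and cannot be set against those of the later ones.

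Other cell types also differed between the later groups. Erythroid genes summed to 410 to 553 CPM in WT and 734 to 814 CPM in ST hearts at 6 months, with 7 of 8 called higher. Macrophage markers, which summed to 141 to 182 CPM in WT hearts of 6 months, were at 105 to 120 CPM in ST hearts of 8 months, with 4 of 8 called lower. Fibroblast markers summed to 1208 to 1287 CPM in WT and 976 to 1039 CPM in ST hearts at 6 months, with 3 of 8 higher and 4 lower. Of 8 ventricular markers 2 were higher and 4 lower at 6 months, and 3 had log2 fold changes above 0 (median -0.75). Their sum was nevertheless higher in ST hearts (13600 to 14490 CPM) than in WT hearts (12000 to 13340 CPM). The largest of these genes were Myl2 and Myl3. For comparison, 40% of all genes were called at 6 months and 33.9% in ST hearts of 8 months against WT.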
